A study of Mus musculus with 6 samples.

Results

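The genes described here are 40 markers and regulators of the cell division cycle, from the cyclins that open it to the proteins that separate chromosomes at its end. They were chosen by name. On the array, 39 of the 40 had at least 1 probe set annotated with that gene symbol alone, out of 18193 genes measured in this way. Where a gene had several, the one with the highest mean over the 6 libraries was used. The gene without such a probe set was Ccnb1, a mitotic cyclin, which was not analysed here.

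The libraries were made from fluorescence-sorted cells of the myenteric plexus of mouse colon, a layer of ganglia within the muscle wall of the gut. All mice were of the strain Mapttm1(EGFP)Klt/J, in which EGFP is made from the locus of Mapt, the gene of the microtubule protein tau, which is active in neurons. All had also received a fluorescent cholera toxin subunit B in the celiac ganglion by surgery and were killed 3 to 4 days later. There were 3 libraries of Mapt-EGFP+ cells, labelled colonic neurons, and 3 of Mapt-EGFP- cells, labelled myenteric cells, each made from cells pooled from 2, 4 or 6 mice. The sources do not say which library came from how many mice, nor the age, sex or zygosity of the mice. Below the libraries are called EGFP-positive and EGFP-negative replicates 1, 2 and 3. The question addressed here is whether genes of dividing cells differ between the sorted fractions.

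A cell enters the cycle when D-type cyclins bind the kinases Cdk4 and Cdk6, release E2F transcription factors from the retinoblastoma protein, and so allow genes of DNA replication to be transcribed. Cyclin E, cyclin A and cyclin B then act in turn, while CDK inhibitors hold the kinases back. Genes of mitosis are transcribed late in the cycle, and most are silent in cells that have left it. Mature neurons are such cells, whereas glia, connective tissue, vessel, immune and epithelial cells of the gut wall can divide.

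Values are the deposited log2 values, 1 per probe set and library, and a difference is EGFP-positive minus EGFP-negative on the log2 scale. Probe sets for TrpnX, a bacterial control transcript, read 1.00 to 1.48 and mark the background. Of the 39 genes, 38 read above the highest TrpnX value of the same library in all 6 libraries, compared with 73.6% of all genes. The label of 2 libraries was not matched by Mapt, which read 1.43 and 1.32 in EGFP-positive replicates 1 and 2, at background, and 5.55 in EGFP-positive replicate 3. In the EGFP-negative libraries it read 1.44, 1.64 and 1.38. A list of 14 pan-neuronal genes, Mapt among them, averaged 3.08, 2.93 and 6.26 in EGFP-positive replicates 1, 2 and 3. In the EGFP-negative libraries this list averaged 3.23 to 3.49. Every direction below therefore refers to the labels. For Ccnd1, for the 39 genes as a set and for differences whose sign then turned, values without EGFP-positive replicates 1 and 2 are also given. Other named differences are not given without both of these libraries. In sorted pools of this kind, fewer cells of a type and less RNA per cell cannot be told apart.

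The 39 cell cycle genes, Tyms excepted, read above the TrpnX values in all 6 libraries, as did 73.6% of all genes. None of the differences between the labels passed the test. Of the 39 genes, 0 passed the threshold of adjusted p 0.05 (limma, Benjamini-Hochberg over all genes, smallest adjusted p = 0.986), and the same count over all genes was 0 of 18193, which is 0%. At an unadjusted p of 0.05, 1 of the 39 was higher and 0 were lower in the EGFP-positive libraries, beside 1.48% higher and 3.43% lower among all genes, 4.91% in either direction. The median difference of the 39 was -0.06, and that of all genes was -0.02. In 36 of the 39 the difference was smaller than the pooled SD of the replicates, compared with 72.8% of all genes. The exceptions were Ccnd1, Pcna and E2f1. The spread of the 39 genes was wide, with a median pooled SD of 0.44 beside 0.29 for all genes. The median half-width of the 95% interval of the difference was 0.80. This interval is not adjusted for the number of genes, so it does not give the size of difference that would pass. Among all genes, differences ran from -7.05 to 3.26, and 0 passed. Groups that did not overlap were found for 1 of the 39, higher in the EGFP-positive libraries, beside 3.07% of all genes higher and 6.04% lower, 9.11% in either direction.

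**Figure D1:**
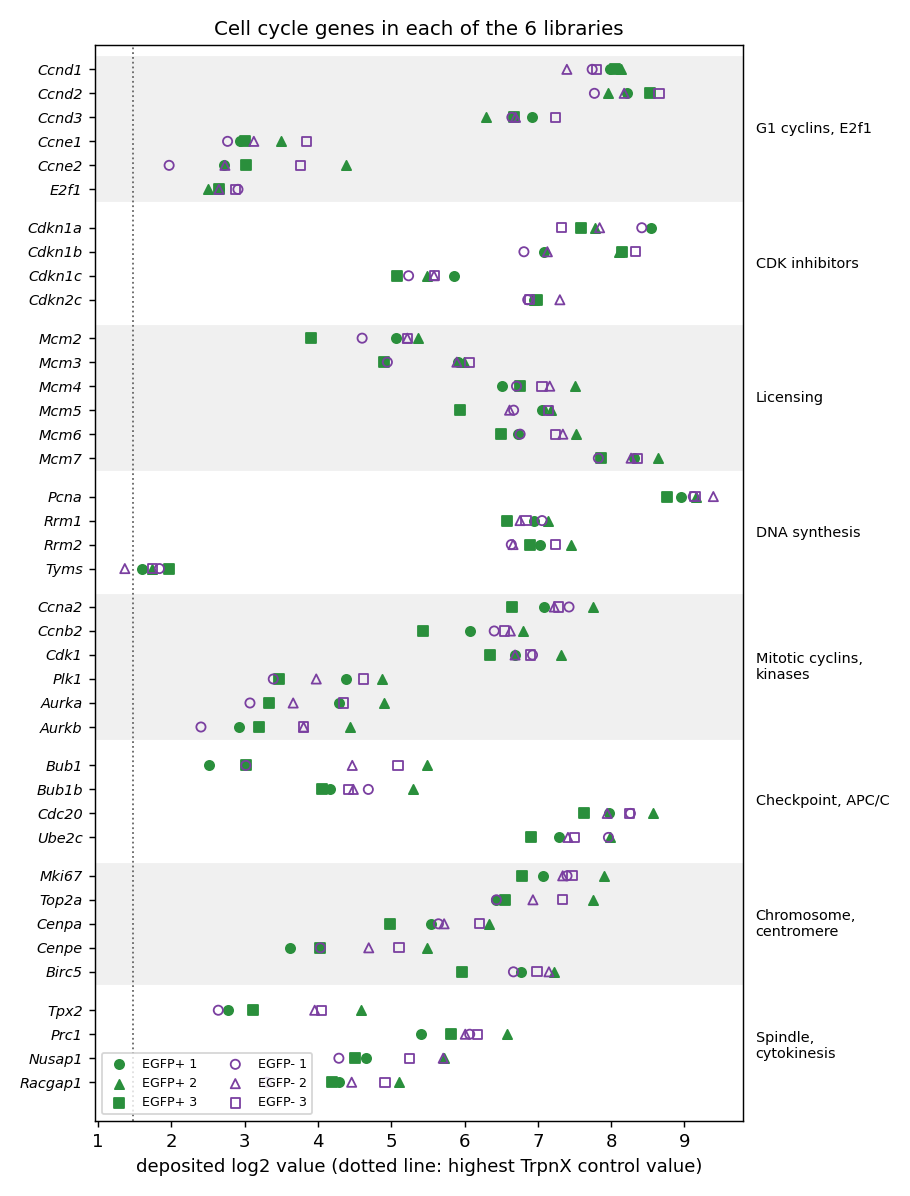
Deposited log2 values (horizontal axis) of the 39 cell cycle genes in each library, grouped by role. Filled green symbols are the EGFP-positive and open purple symbols the EGFP-negative replicates, with circles, triangles and squares for replicates 1, 2 and 3, and the dotted line is the highest TrpnX value, 1.48. Ccnd1 is the gene whose groups do not overlap, and the green triangle of EGFP-positive replicate 2 is the rightmost symbol for all 19 genes of the lower 4 groups.

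The D-type cyclins, which answer growth signals by activating Cdk4 and Cdk6, were read at clear signal in every library. Ccnd1, cyclin D1, was 7.99, 8.13 and 8.05 in EGFP-positive replicates 1, 2 and 3 against 7.74, 7.40 and 7.80 in the corresponding EGFP-negative ones. Triplets of values below keep this order. All 3 EGFP-positive values lay above all 3 EGFP-negative ones, with means of 8.06 ± 0.07 (SD, n = 3) and 7.65 ± 0.22 (SD, n = 3). The difference was 0.41 (SE 0.15, 95% interval 0.04 to 0.78), with unadjusted p = 0.0350. It did not pass the threshold, since its limma p adjusted over all genes by Benjamini-Hochberg was 0.986. When replicate numbers entered as blocks, its unadjusted p was 0.0675, and 0 of the 39 genes were then under an unadjusted p of 0.05, beside 7.39% of all genes (2.85% higher and 4.54% lower). The other Ccnd1 probe sets also had higher means in the EGFP-positive libraries, and the 3 differences ran from 0.41 to 1.01. With EGFP-positive replicate 3, the library in which Mapt was above background, set alone against the EGFP-negative libraries, the Ccnd1 difference was 0.40.

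Markers of enteric glia, supporting cells that share the plexus with neurons, were also higher in the EGFP-positive libraries, with list means of 6.31 to 8.51 over the 8 genes found against 4.59 to 5.91. Of these 8 genes, 5 were higher without overlap, beside 3.07% of all genes. Among the 5 was Sox10, a transcription factor of glia, with 8.36, 7.56 and 9.75 against 6.28, 7.14 and 6.79. The groups of Gfap, Foxd3 and Fabp7 overlapped. Other marker lists moved with the label in the opposite direction. Lower without overlap were 6.04% of all genes. Of 12 macrophage genes 6 were lower without overlap, with list means of 1.95 to 5.77 in the EGFP-positive libraries against 6.36 to 8.18. Of 6 lymphocyte genes 5 were lower without overlap, with list means of 1.97, 1.11 and 1.10 against 2.93, 4.56 and 5.42. None of these marker genes passed the threshold, and the part of these cell types in the Ccnd1 difference was not tested.

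Ccnd2, cyclin D2, read 8.21, 7.96 and 8.53 in the EGFP-positive libraries against 7.77, 8.18 and 8.65 in the EGFP-negative ones. The groups overlapped, and the difference was 0.03 (95% interval -0.65 to 0.72). Ccnd3, cyclin D3, read 6.92, 6.29 and 6.68 against 6.65, 6.70 and 7.24, also with overlap, and had a difference of -0.23 (95% interval -0.84 to 0.38).

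The cyclins of S phase entry and E2f1, a transcription factor they release, gave dimmer signals. Ccne2, cyclin E2, read 2.72, 4.39 and 3.02 against 1.97, 2.73 and 3.76, and its difference of 0.56 (SE 0.62) was the largest positive difference among the 39 genes. Within both groups its values spread over more than that difference. Ccne1, cyclin E1, read 2.93, 3.49 and 3.00 against 2.77, 3.13 and 3.85. E2f1 read 2.65, 2.51 and 2.65 against 2.91, 2.65 and 2.88, with 3 libraries at an identical value, which leaves little to read from its difference of -0.21.

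The CDK inhibitors, which slow or stop the cycle, had groups that overlapped, as did most genes. Groups that did not overlap were found for 9.11% of all genes, so 0 of these 4 says little about them. Cdkn1a, an inhibitor induced by p53, read 8.54, 7.78 and 7.59 in the EGFP-positive libraries against 8.42, 7.84 and 7.33 in the EGFP-negative ones. Replicate 1 was the highest and replicate 3 the lowest in both groups. Cdkn1b, an inhibitor that accumulates in resting cells, read 7.08, 8.11 and 8.15 against 6.81, 7.13 and 8.34, with replicate 3 the highest in both groups and replicate 1 the lowest. Its difference was 0.35 (95% interval -0.90 to 1.60). Cdkn1c, an imprinted inhibitor of the same family, read 5.85, 5.48 and 5.08 against 5.24, 5.58 and 5.59, with a difference of 0.00 (95% interval -0.58 to 0.58). Cdkn2c, which binds Cdk4 and Cdk6, read 6.94, 6.95 and 6.98 against 6.86, 7.30 and 6.88. It had the narrowest spread among the EGFP-positive libraries of all 39 genes, with an SD of 0.02 (n = 3).

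**Figure D2:**
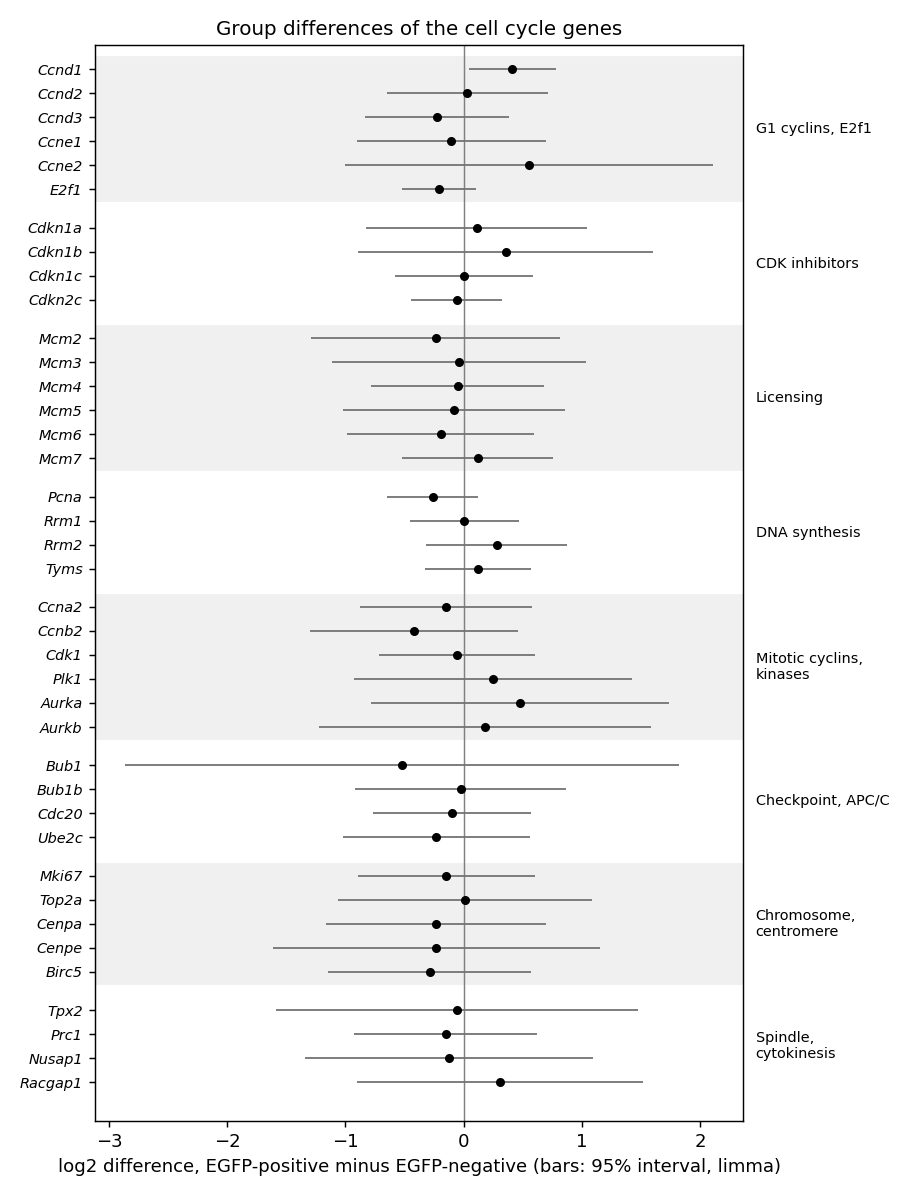
Log2 differences (horizontal axis, EGFP-positive minus EGFP-negative) of the 39 genes by role, with points for the difference of group means (3 libraries each) and bars for the 95% interval from limma. The interval of Ccnd1, 0.04 to 0.78, is the only one that does not span 0, and that of Bub1, -2.87 to 1.83, is the widest.

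The genes of replication licensing, Mcm2 to Mcm7, encode the 6 subunits of the helicase that unwinds DNA at replication origins. Mcm2 read 5.06, 5.36 and 3.91 in the EGFP-positive libraries against 4.60, 5.22 and 5.22 in the EGFP-negative ones. Mcm3 read 5.91, 5.99 and 4.90 against 4.95, 5.90 and 6.07. Mcm5 read 7.06, 7.18 and 5.94 against 6.67, 6.61 and 7.14. In these 3 genes EGFP-positive replicate 3 held the lowest value, and the other EGFP-positive libraries lay among or above the EGFP-negative ones. Mcm4 read 6.52, 7.50 and 6.76 against 6.71, 7.16 and 7.06. Mcm6 read 6.73, 7.52 and 6.50 against 6.76, 7.34 and 7.24. Mcm7 read 8.31, 8.64 and 7.86 against 7.83, 8.27 and 8.36. EGFP-positive replicate 2 was the highest library for 5 of the 6 subunits, and the differences of the group means ran only from -0.24 to 0.12. A further probe set of Mcm6 gave a difference of 0.63 and one of Mcm7 gave -0.35, against -0.19 and 0.12 for those used.

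Of the genes of DNA synthesis, Pcna, the sliding clamp of the polymerases, read 8.95, 9.16 and 8.76 in the EGFP-positive libraries against 9.12, 9.39 and 9.15 in the EGFP-negative ones. It was lower in the EGFP-positive library of each replicate number, but the groups overlapped (difference -0.26, 95% interval -0.65 to 0.12). Rrm1 and Rrm2 encode the large and small subunits of ribonucleotide reductase, which makes the building blocks of DNA. Rrm1 read 6.95, 7.14 and 6.58 against 7.06, 6.76 and 6.84. Rrm2 read 7.03, 7.45 and 6.90 against 6.64, 6.66 and 7.24, a difference of 0.28 (95% interval -0.32 to 0.87). Other probe sets of Rrm1 gave differences of up to 1.07, so the probe sets of this gene disagreed. Tyms, thymidylate synthase, stayed between 1.37 and 1.97 in all libraries, near the TrpnX level, where no difference can be read.

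Mitotic genes were measured above background in every library, including the EGFP-positive library with Mapt. Mki67, which coats mitotic chromosomes and is the standard marker of cycling cells, read 7.07, 7.91 and 6.79 in the EGFP-positive libraries against 7.40, 7.34 and 7.47 in the EGFP-negative ones. The EGFP-negative libraries lay within a narrow band, at 7.40 ± 0.06 (SD, n = 3), and the EGFP-positive ones fell on both sides of it, at 7.26 ± 0.58 (SD, n = 3). The difference was -0.15 (SE 0.30, 95% interval -0.90 to 0.61). Top2a, the topoisomerase that untangles chromosomes before division, read 6.42, 7.75 and 6.56 against 6.44, 6.93 and 7.34, with a difference of 0.01 (95% interval -1.07 to 1.08). Birc5, survivin, a subunit of the chromosomal passenger complex, read 6.77, 7.21 and 5.97 against 6.67, 7.15 and 6.99. Both again had EGFP-positive replicate 2 as the highest library. Cenpa, the histone variant of centromeres, and Cenpe, a kinetochore motor, had a difference of -0.23 each, and a second Cenpe probe set gave 1.25.

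Among the cyclins and kinases that drive mitosis, Cdk1, the kinase on which entry depends, read 6.68, 7.31 and 6.35 in the EGFP-positive libraries against 6.93, 6.69 and 6.90 in the EGFP-negative ones. Ccna2, cyclin A2, which binds Cdk2 and Cdk1, read 7.08, 7.75 and 6.65 against 7.43, 7.23 and 7.28. Both had EGFP-positive replicate 2 as the highest and EGFP-positive replicate 3 as the lowest library, with the EGFP-negative libraries between them. Ccnb2, cyclin B2, read 6.07, 6.80 and 5.44 against 6.41, 6.63 and 6.54, with a difference of -0.42 (95% interval -1.30 to 0.46). Aurka, a kinase of centrosomes and spindle poles, read 4.29, 4.90 and 3.33 against 3.07, 3.66 and 4.35, with the largest positive difference of the mitotic genes at 0.48 (95% interval -0.78 to 1.74). Plk1, a kinase that acts from mitotic entry to cytokinesis, and Aurkb, the kinase of the chromosomal passenger complex, had differences of 0.25 and 0.18, each smaller than its pooled SD.

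Of the genes of the spindle checkpoint and of the anaphase-promoting complex, the ubiquitin ligase that ends mitosis, Bub1 varied most among all 39 genes. This checkpoint kinase read 2.51, 5.49 and 3.02 in the EGFP-positive libraries against 3.02, 4.47 and 5.09 in the EGFP-negative ones. Its values spanned 2.98 log2 units, and the difference of -0.52, the lowest of the 39, had a 95% interval from -2.87 to 1.83. Cdc20, the activator of the anaphase-promoting complex, read 7.97, 8.57 and 7.63 against 8.26, 7.95 and 8.25. Ube2c, an enzyme that supplies ubiquitin to it, read 7.29, 7.98 and 6.91 against 7.96, 7.41 and 7.50. In Ube2c the top of the EGFP-positive libraries and the top of the EGFP-negative ones were nearly equal. Bub1b, a further checkpoint component, had a difference of -0.03.

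The genes of the spindle midzone and of cytokinesis, the final separation of the daughter cells, had differences from -0.15 to 0.31. Racgap1, which steers the contractile ring, read 4.29, 5.11 and 4.20 against 3.30, 4.46 and 4.92. Prc1, which bundles microtubules of the midzone, read 5.40, 6.58 and 5.81 against 6.07, 6.01 and 6.18. Both groups of either gene overlapped. Tpx2 and Nusap1, both proteins of spindle microtubules, had differences of -0.06 and -0.12 and also overlapped.

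The mitotic genes shared their highest library but not their lowest, and neither followed the label. All 19 were highest in EGFP-positive replicate 2, the library in which 10.8% of all genes were highest. The margin was small for some, at 0.01 for Nusap1 over EGFP-negative replicate 2. Of the 19, 9 were lowest in EGFP-positive replicate 3, where 22.4% of all genes were lowest. A further 6 were lowest in EGFP-negative replicate 1 and 4 in EGFP-positive replicate 1, beside 26.8% and 16.4% of all genes. The 19 genes averaged 5.26, 6.32 and 5.05 in the EGFP-positive libraries against 5.27, 5.70 and 5.91 in the EGFP-negative ones. The 10 genes of licensing and DNA synthesis averaged 6.41, 6.77 and 6.01 against 6.22, 6.47 and 6.61. In both averages the highest and the lowest library carried the same label. The CDK inhibitors shared no highest library, with averages from 6.83 to 7.10 over the 6 libraries.

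The replicate numbers paired the libraries, since libraries with the same number deviated together across genes. Within pairs the label difference of the mitotic genes turned. In pair 2 all 19 were higher in the EGFP-positive library, with a median difference of 0.62, and 42.3% of all genes were higher there. In pair 3 all 19 were lower in the EGFP-positive library, with a median of -0.75, and 55.4% of all genes were lower there. In pair 1, 7 were higher and 12 lower, with a median of -0.25, and 51.7% of all genes were higher there. With ribosomal centring or with the mean over all probe sets 10 were higher, beside 78.8% and 53.5% of all genes. The genes of licensing and DNA synthesis did likewise, with 9 of 10 higher in pair 2 and 9 of 10 lower in pair 3, or 5 of 10 lower in pair 3 with arrays centred on ribosomal protein genes. Under that centring 17 of the 19 mitotic genes were lower in pair 3, beside 16.7% of all genes. With median centring 17 were higher in pair 2, beside 30.5% of all genes. Without centring, the exceptions among the genes of licensing and DNA synthesis were Pcna in pair 2 and Tyms in pair 3. The opposite signs of pairs 2 and 3 were shared by 30 of the 39 genes and by 21.3% of all genes. In all 3 pairs only Ccnd1 of the 39 was higher, beside 11.3% of all genes, and only E2f1 and Pcna were lower, beside 16.2%. These genes are transcribed together in dividing cells, so their number is not a number of independent observations. The pattern rests on 1 library of each label per pair, and no test was made of it.

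**Figure D3:**
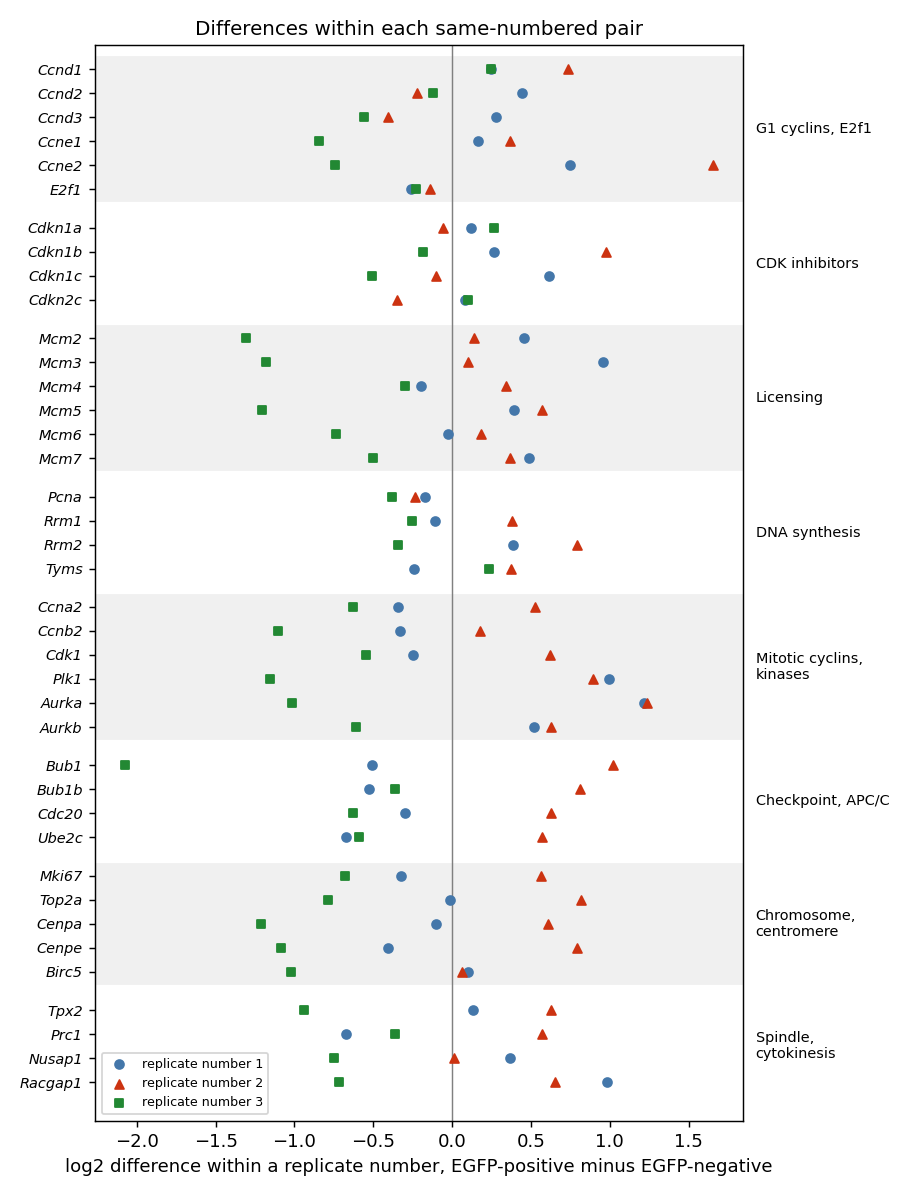
Log2 difference within each replicate number (horizontal axis, EGFP-positive minus EGFP-negative) for the 39 genes by role. Circles, triangles and squares are replicate numbers 1, 2 and 3, each a difference of 2 libraries. In the 4 mitotic groups all 19 triangles lie right of 0 and all 19 squares left of it, while the CDK inhibitors scatter on both sides.

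The group comparison depended on which EGFP-positive library was included. Without EGFP-positive replicate 2, the median difference of the 39 genes was -0.31 and 11 of them were lower without overlap, beside 10.3% of all genes. Without EGFP-positive replicate 3 the median was 0.11, and 0 were lower without overlap. With EGFP-positive replicate 3 alone against the EGFP-negative libraries the median was -0.39, and 18 of the 39 lay below all EGFP-negative values, beside 29.2% of all genes. In that comparison 0 passed (limma, smallest adjusted p = 0.255), on the assumption that the lone library varies like the others. It had been added after the values were seen.

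Markers of cell types that can divide varied between the same libraries. Endothelial genes averaged 5.64, 6.77 and 4.36 in the EGFP-positive libraries against 5.81, 6.38 and 5.81 in the EGFP-negative ones, with the highest and lowest values in the same libraries as the mitotic genes. Epithelial genes averaged 7.93, 7.14 and 4.55 against 6.95, 7.07 and 5.50. Fibroblast genes averaged 10.43, 10.84 and 10.07 against 10.23, 11.07 and 11.04. All 3 lists were lowest in EGFP-positive replicate 3. So were the lists of mesothelium, interstitial cells of Cajal, macrophages, lymphocytes and the epithelial crypt. The enteric glia and smooth muscle lists were not. Enteric glia genes averaged 6.75, 6.31 and 8.51 against 4.59, 5.91 and 5.48, and were highest in EGFP-positive replicate 3. Smooth muscle genes averaged 8.53, 7.94 and 9.95 against 8.72, 8.18 and 10.21. In EGFP-positive replicate 3 pan-neuronal genes averaged 6.26, against 2.93 to 3.49 in the other 5 libraries. Macrophage genes averaged 5.77, 2.84 and 1.95 against 7.47, 8.18 and 6.36. This list was lowest in EGFP-positive replicate 3, as was the average of the mitotic genes. Its second-lowest value was in EGFP-positive replicate 2, where the mitotic genes were highest. Lgr5, which defines the dividing stem cells of the epithelial crypt, read between 1.41 and 1.56, close to the highest TrpnX value of 1.48. The 10 genes of the crypt list, Lgr5 included, averaged 3.19 to 3.79 but were mixed. Ascl2, Rnf43 and Olfm4 read 1.30 to 1.77, and Sox9, Cdca7, Axin2 and Prom1 read 1.71 to 5.82. Smoc2 read 6.71 to 8.14 and Slc12a2 7.06 to 8.45. The part of any of these cell types in the levels of the cell cycle genes was not tested.

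**Figure D4:**
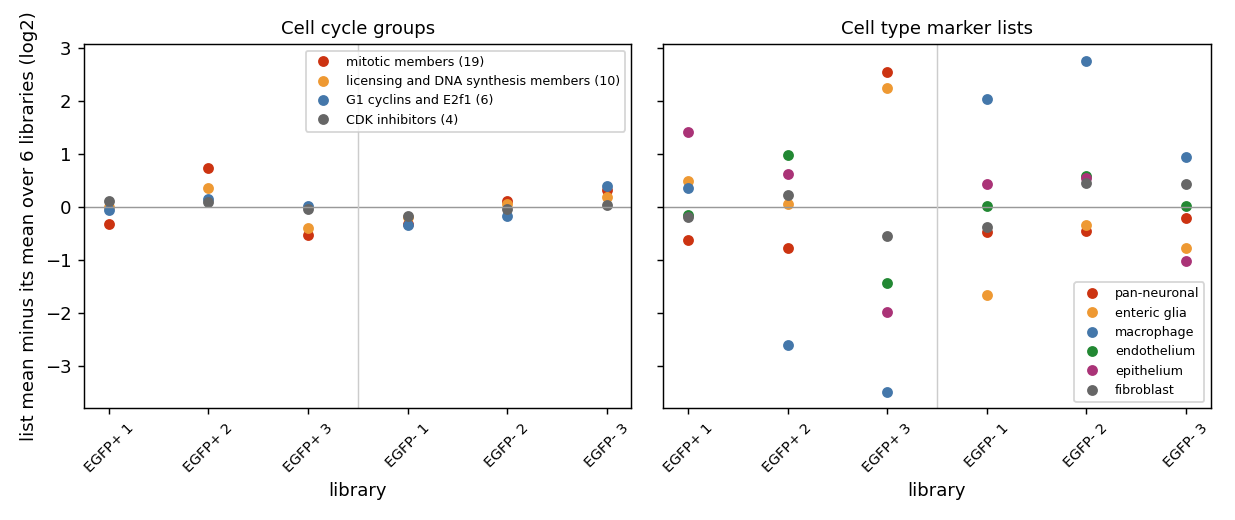
List means in each library after subtracting the list's own mean over the 6 libraries (vertical axis, log2), for groups of cell cycle genes (left) and for lists of cell type markers (right). Each point is 1 library. The mitotic genes (red, left) stand highest in EGFP+ 2 and lowest in EGFP+ 3. In EGFP+ 3 the pan-neuronal (red, right) and enteric glia (orange, right) lists are highest, and the endothelial and epithelial lists are lowest.

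Promoter sequences are shown because late cell cycle genes, which shared their highest library here, are known to share control elements. Late cell cycle genes are known for CCAAT boxes, bound by the factor NF-Y, and for the cell cycle genes homology region (CHR), bound by the DREAM and MuvB complexes. Genes of S phase are known for E2F sites. RefSeq promoters of the mouse build GRCm38.p6, from 250 bases before to 50 bases after a start, were matched by symbol for 31 of the 39 genes, with 36 promoters. Letters were searched on both strands, CCAAT for the CCAAT box. The CHR was searched as TTTGAA and, in its other form, as TTCGAA. For E2F the first form was TTCCCGC, the second form was TTGGCGC, and the third form was TTCGCGC. In the printed sequences, which hold the 150 bases just before the start 5′ to 3′ on the gene's strand, capitals mark every match on either strand. Top2a, Cdk1, Cdc20 and Ube2c are examples of mitotic genes and Mcm6 and Rrm1 of replication genes. They were picked because their windows hold matches, so they are not typical of their groups. Only 6 of the 17 mitotic promoters have CHR letters inside these 150 bases. The windows are Top2a (chr11:99024190-99024339, minus strand), Cdk1 (chr10:69352913-69353062, minus strand), Cdc20 (chr4:118437344-118437493, minus strand), Ube2c (chr2:164769779-164769928, plus strand), Mcm6 (chr1:128359706-128359855, minus strand) and Rrm1 (chr7:102441545-102441694, plus strand).
Top2a: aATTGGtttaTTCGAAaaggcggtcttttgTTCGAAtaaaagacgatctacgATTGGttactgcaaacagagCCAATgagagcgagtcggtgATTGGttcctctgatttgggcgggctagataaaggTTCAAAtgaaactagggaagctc
Cdk1: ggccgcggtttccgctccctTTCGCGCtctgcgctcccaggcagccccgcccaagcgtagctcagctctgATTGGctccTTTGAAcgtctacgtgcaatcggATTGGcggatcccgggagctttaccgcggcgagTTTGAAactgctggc
Cdc20: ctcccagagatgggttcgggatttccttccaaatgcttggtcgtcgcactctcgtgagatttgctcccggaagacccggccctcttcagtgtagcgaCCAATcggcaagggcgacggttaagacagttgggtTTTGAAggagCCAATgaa
Ube2c: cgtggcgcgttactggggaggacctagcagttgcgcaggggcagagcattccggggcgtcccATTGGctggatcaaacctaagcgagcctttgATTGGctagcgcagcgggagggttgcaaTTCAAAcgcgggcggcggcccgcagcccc
Mcm6: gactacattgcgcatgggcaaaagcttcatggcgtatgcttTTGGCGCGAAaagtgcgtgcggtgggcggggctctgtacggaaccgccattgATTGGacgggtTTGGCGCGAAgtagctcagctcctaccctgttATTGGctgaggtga
Rrm1: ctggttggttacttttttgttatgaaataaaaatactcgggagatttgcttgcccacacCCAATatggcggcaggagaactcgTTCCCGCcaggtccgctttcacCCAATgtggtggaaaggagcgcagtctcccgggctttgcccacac

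Over the full length from 250 before to 50 after the start, the letters of the CHR stood in 14 of the 17 promoters of mitotic genes, or 82.4%, and in 19.2% of all 32851 promoters of the table. Those of the CCAAT box stood in 15 of these 17 and in 37.4% of all promoters. E2F letters stood in 2 of the 17 and in 8.07% of all promoters. In the 10 promoters of licensing and DNA synthesis genes the order was different, with E2F letters in 6, CCAAT in 9 and CHR letters in 2. Top2a held 3 CHR matches in the printed window, which began 140, 120 and 23 bases before the start, and Cdk1 held 2, which began 71 and 15 bases before it. In Mcm6 the 4 E2F matches formed 2 overlapping pairs, which began 109 and 106 and 46 and 43 bases before the start. CCAAT and E2F letters overlapped in 1 of the 36 promoters. In the 5 promoters of CDK inhibitors CHR letters stood in 0 and E2F letters in 1. A match is a description of the letters in the window, and binding was not measured.

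The wider cell cycle, in lists of 98 other genes of which 94 were measured, likewise gave no call. Of the 94, 0 passed (limma, Benjamini-Hochberg over all genes, smallest adjusted p = 0.986), and at an unadjusted p of 0.05, 1 was higher and 3 were lower in the EGFP-positive libraries, against 1.48% and 3.43% of all genes. The higher gene was Skp2, which marks Cdkn1b for degradation, with 4.65, 5.19 and 4.85 in the EGFP-positive libraries against 4.11, 4.09 and 4.57 in the EGFP-negative ones. The groups did not overlap, and the difference was 0.64 (SE 0.21). The lower genes were Cdk4, the partner kinase of the D-type cyclins, Btg1, an antiproliferative gene, and Plk3, a stress-responsive kinase. Cdk4 read 7.18, 7.09 and 6.91 against 7.48, 7.54 and 7.31, a difference of -0.38 (SE 0.13). Btg1 read 9.12, 8.82 and 9.21 against 10.07, 9.34 and 9.89, and Plk3 read 2.10, 2.75 and 2.07 against 2.78, 3.15 and 3.13, with a difference of -0.71 each. All 3 had groups that did not overlap, as did Ccng2, a cyclin linked to arrest, which was also lower. In all, 1 of the 94 was higher and 4 were lower without overlap, beside 3.07% and 6.04% of all genes.

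Of the remaining genes with the highest or lowest differences in their lists, Mycn (0.44), Cdkn2d (0.34), Btg2 (0.14), Lig1 (0.45), Gins2 (0.18), Kif11 (0.54) and Ect2 (0.52) had higher means in the EGFP-positive libraries. Myc (-0.30), Cdt1 (-0.40), Rfc4 (-0.57), Smc4 (-0.45) and Hmmr (-0.49) had lower means. All of these had groups that overlapped. Kif11, the motor that pushes spindle poles apart, read 4.35, 5.46 and 3.81 against 3.52, 4.29 and 4.19. Cdt1, which loads the helicase onto origins, read 6.78, 6.69 and 5.58 against 7.03, 6.43 and 6.78. Both had their EGFP-positive minimum in replicate 3. EGFP-positive replicate 2 was also the highest library for 31 of 39 further mitotic genes and 12 of 23 further replication genes, beside 10.8% of all genes. Opposite signs, higher in pair 2 and lower in pair 3, were found for 37 of the 39 and 19 of the 23, beside 21.3% of all genes. These counts come from the same libraries, so they are not independent observations of the pattern. Of the 13 further inhibitors and arrest genes, 2 were highest in EGFP-positive replicate 2 and 6 in EGFP-negative replicate 1, where 18.7% of all genes were highest.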

How the data were processed

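Gene expression was measured in 3 EGFP-positive and 3 EGFP-negative samples on 1-colour Affymetrix Mouse Genome 430 2.0 arrays, from about 50 ng of total RNA per the labels' protocols. The deposited values are log2 expression values that the authors computed by RMA, as named in the submitters' processing notes; its settings are not known here. The 6 columns had medians of 1.91 to 1.99 but upper quartiles of 4.08 to 4.86, which quantile normalisation would have made equal. The number of arrays limits the precision.

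Of 45101 probe sets, 34945 had 1 gene symbol in the platform annotation. The rest, with several symbols or no symbol, and 64 controls were omitted, and the probe set with the highest mean stood for each of 18193 genes. All genes were fitted with limma 3.58.1 in R 4.3.3 (lmFit, eBayes, two-sided, no block), which was tested on simulated data, with Benjamini-Hochberg adjustment over all genes. Genes not named by symbol were named by a fixed rule, that of other cell cycle lists the 2 highest and 2 lowest differences and those with unadjusted p under 0.05 are given. Further genes (Ccng2, Ccr2, Fermt3 and Mefv) and the pattern over libraries were singled out after their values were seen. The genes and lists were chosen with earlier results of these data known. Deviations from the group means correlated at 0.36, 0.32 and 0.42 across genes for libraries numbered 1, 2 and 3, so the numbers were taken as pairs; the labels do not state what they mark. Whether the pools came from separate groups of mice is not stated, so p-values measure the spread between these samples only. Protein sequences were not used here.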

Additional observations from a re-analysis of the deposited data

How the results depend on the processing

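Of the 39 cell cycle genes and the 94 others, 0 passed the threshold under every alternative run. With a replicate block the count of passing genes was also 0 of 18193 (adjusted p = 0.691 for Ccnd1), the block changed no call, and unadjusted p fell under 0.05 for 1345 instead of 893 genes. Over all genes 1 passed with values raised to the control level (Mefv), and 0 to 2 passed with 1 library left out, the 2 being Ccr2 and Fermt3 without EGFP-positive replicate 1. Genes without overlap numbered 1 higher and 1 lower of the 39 with arrays centred on their medians (2.22% and 9.28% of all genes), with a second quantile normalisation (3.65% and 7.78%) and with the mean over all probe sets (4.56% and 6.16%), 2 in all each time. With centring on 16 ribosomal protein genes 2 were higher and 0 lower (25.3% and 1.36% of all genes). With 1 library left out they numbered 1 to 12, with 1 higher and 11 lower without EGFP-positive replicate 2 (6.45% and 10.3%), 2 and 1, or 3 in all, without EGFP-negative replicate 2 (6.34% and 9.14%), and 2 and 0 without EGFP-negative replicate 3 (7.37% and 11.1%). With EGFP-positive replicate 3 alone they numbered 20, with 2 higher and 18 lower (23.2% and 29.2%). Ccnd1 was among them each time. Fewer libraries make non-overlap more common by construction. Of the counts over pairs and libraries, which were recomputed under 6 settings chosen after the values were seen, the mitotic genes higher in pair 1, 7 of 19, became 4 with a second quantile normalisation and 10 with ribosomal centring or the mean over all probe sets. Of all genes, 46.1% were higher in pair 1 with that normalisation, 78.8% with ribosomal centring and 53.5% with the mean over all probe sets. With ribosomal centring, 10 of 10 replication genes were higher in pair 1 and 5 lower in pair 3, beside 78.8% and 16.7% of all genes. That centring moved the median of all genes by 0.32, and 8 of the 16 genes were lower in the EGFP-positive libraries without overlap. The mitotic genes highest in EGFP-positive replicate 2 numbered 17 to 19 under the 6 settings, beside 6.68% to 12.5% of all genes.

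Many differences changed sign, also large ones such as those of Kif11, Aurka and Bub1. None of them was past the threshold, and the cause was not tested. With ribosomal centring, which shifts all genes alike, these were Ccnd3 (0.092), Ccne1 (0.22), E2f1 (0.11), Cdkn2c (0.26), Mcm2 (0.084), Mcm3 (0.28), Mcm4 (0.27), Mcm5 (0.24), Mcm6 (0.13), Pcna (0.060), Ccna2 (0.17), Cdk1 (0.27), Bub1b (0.30), Cdc20 (0.22), Ube2c (0.091), Mki67 (0.18), Cenpa (0.088), Cenpe (0.089), Birc5 (0.036), Tpx2 (0.26), Prc1 (0.17), Nusap1 (0.20) and Myc (0.020). With array weights they were Ccnd2 (-0.18), Cdkn1c (-0.055), Mcm4 (0.099), Mcm5 (0.17), Ccna2 (0.17), Cdk1 (0.25), Bub1b (0.38), Cdc20 (0.22), Ube2c (0.17), Mki67 (0.17), Cenpa (0.093), Cenpe (0.12), Tpx2 (0.13), Prc1 (0.15), Cdkn2d (-0.0049) and Hmmr (0.012). With the mean over all probe sets they were Mcm6 (0.19), Mcm7 (-0.068), Cdc20 (0.014), Cenpe (0.51), Tpx2 (0.18), Prc1 (0.017) and Btg2 (-0.046), without _x_at and _s_at probe sets Cdc20 (0.12) and Prc1 (0.19), with median centring Ccnd2 (-0.0045), Cdkn1c (-0.034), Rrm1 (-0.031) and Top2a (-0.028), and with quantile normalisation Cdkn1c (-0.12) and Top2a (-0.024). With EGFP-positive replicate 3 alone they were Cdkn1a (-0.27), Cdkn1c (-0.39), Mcm7 (-0.29), Rrm1 (-0.30), Plk1 (-0.53), Aurka (-0.36), Aurkb (-0.14), Top2a (-0.35), Racgap1 (-0.027), Btg2 (-0.073), Gins2 (-0.72), Lig1 (-0.17) and Kif11 (-0.19). With 1 library left out, the sign turned for Ccnd2 (-0.18 to 0.26), Ccne1 (-0.34 to 0.20), Cdkn1a (-0.18 to 0.39), Cdkn1c (-0.19 to 0.20), Cdkn2c (-0.13 to 0.085), Mcm2 (-0.53 to 0.19), Mcm3 (-0.39 to 0.31), Mcm4 (-0.34 to 0.15), Mcm5 (-0.31 to 0.31), Mcm6 (-0.50 to 0.015), Mcm7 (-0.066 to 0.32), Rrm1 (-0.12 to 0.16), Tyms (-0.018 to 0.22), Ccna2 (-0.44 to 0.11), Cdk1 (-0.32 to 0.16), Plk1 (-0.070 to 0.63), Aurkb (-0.28 to 0.48), Bub1 (-1.43 to 0.060), Bub1b (-0.42 to 0.20), Cdc20 (-0.36 to 0.11), Ube2c (-0.52 to 0.010), Mki67 (-0.47 to 0.089), Top2a (-0.41 to 0.25), Cenpa (-0.59 to 0.082), Cenpe (-0.79 to 0.14), Birc5 (-0.57 to 0.055), Tpx2 (-0.61 to 0.30), Prc1 (-0.48 to 0.11), Nusap1 (-0.52 to 0.19), Racgap1 (-0.16 to 0.65), Btg2 (-0.099 to 0.36), Cdkn2d (-0.18 to 0.61), Gins2 (-0.21 to 0.64) and Smc4 (-0.79 to 0.10). The 3 further settings, genes above the median level, values raised to the control level and trend with robust variances, turned 0 signs.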
